A study of Mus musculus with 20 samples.

Results

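The genes examined here encode the subunits of oxidative phosphorylation, the 5 protein complexes of the inner mitochondrial membrane that pass electrons from NADH and succinate to oxygen and make ATP. They were chosen by symbol in the deposited table of mouse ear pinna expression: 13 mitochondrially encoded mRNAs (mt-Nd, mt-Co, mt-Atp and mt-Cytb) and 83 nuclear genes (Ndufa, Ndufb, Ndufc, Ndufs, Ndufv, Sdha to Sdhd, Uqcr, Cox4 to Cox8 and Atp5), 96 of the 16669 genes listed. Pseudogenes and assembly factors were left out. The mitochondrial set held 7 subunits of complex I, 1 of complex III, 3 of complex IV and 2 of complex V, and the nuclear set held 36, 4, 8, 18 and 17 genes of complexes I to V. All 96 passed the filter on low values.

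The libraries came from mouse ear pinnae, 5 for each of 4 groups. Mice received IL-4, IL-13 or IL-31 in PBS by intradermal injection into the right ear (10 µl at 0.1 µg/µl), or PBS alone in the right ear. IL-4 and IL-13, cytokines of type 2 immunity, share the receptor chain Il4ra, whereas IL-31 is known for its role in itch. The sources used here do not give strain, age, sex, the time of harvest, or whether the 5 libraries of a group are from separate animals. The p-values therefore measure only the spread between these samples, which may be technical.

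Complex I (NADH dehydrogenase) and complex II (succinate dehydrogenase) feed electrons to ubiquinone, complex III (cytochrome bc1) passes them to cytochrome c, complex IV (cytochrome c oxidase) reduces oxygen, and complex V is the ATP synthase. All subunits of complex II are nuclear, whereas the other complexes are built from both genomes. The mitochondrial genome is transcribed as long polycistronic RNAs that are cut into mRNAs, rRNAs and tRNAs, and the nuclear subunits are transcribed gene by gene and imported as proteins. Several complex IV subunits exist as a heart and skeletal muscle isoform and a widely expressed isoform. Muscle is rich in mitochondria, and an ear pinna holds striated muscle beside skin, cartilage and fat.

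Values are log2 CPM as deposited (depth-scaled read levels on a log2 scale, with an offset), and fold changes are log2 differences, cytokine minus PBS, ± SE from limma. A gene was called where its Benjamini-Hochberg adjusted p over the 16461 genes tested was under 0.05. Effective depth, inferred from the step between low values, ran from 6.10 M reads in IL-4 library 5 to 23.7 M in IL-31 library 4, and 3 reads corresponded to 0.127 to 0.492 CPM. Krt14, the basal keratin of epidermis, averaged 13.18 ± 0.17 log2 CPM in IL-4 ears and 13.13 ± 0.35 in PBS ears, and the cartilage matrix gene Acan averaged 6.85 ± 0.33 and 6.97 ± 0.41 (SD, n = 5 each), so skin and cartilage were both present. PBS libraries 1, 2 and 3 stood apart from PBS libraries 4 and 5: their score over 20 genes of differentiated epidermis (the mean of log2 CPM centred per gene) was -1.34, -1.94 and -2.32. PBS libraries 4 and 5 scored 0.09 and 0.21, within the range of the cytokine libraries (-0.51 to 1.11). In bulk samples, fewer cells of a type and less RNA per cell cannot be told apart.

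Most subunit mRNAs of both genomes were lower after IL-4 and after IL-13 than after PBS, and a few were after IL-31. No member differed between cytokines past the threshold. Of the 13 mitochondrial mRNAs, 11 fell after IL-4 (9.63% of all tested genes were called lower), 11 after IL-13 (9.8% of all tested genes) and 2 after IL-31 (1.2% of all tested genes). None rose (8.22%, 9.94% and 5.18% of all tested genes did), at an adjusted or an unadjusted p under 0.05 with limma, the only tool run, and 10 of the 13 were lower after IL-31 at an unadjusted p under 0.05. Their median log2 fold change was -0.64, -0.67 and -0.47 after IL-4, IL-13 and IL-31, where the median over all tested genes was -0.02, -0.03 and -0.04. Of the 83 nuclear genes, 64 fell after IL-4, 45 after IL-13 and 9 after IL-31, and none rose even at an unadjusted p under 0.05. Their median log2 fold change was -0.37, -0.29 and -0.19, and the fold change was negative in 81, 79 and 79 of them. All 5 cytokine libraries lay below all 5 PBS libraries for 8, 0 and 3 of the mitochondrial mRNAs and for 42, 26 and 4 of the nuclear genes after IL-4, IL-13 and IL-31, where 5.89%, 5.01% and 1.43% of all tested genes did. The 3 comparisons share the 5 PBS libraries. Skeletal muscle markers fell beside them, 25 and 23 of 26 after IL-4 and IL-13, with every library of both groups below every PBS library on the muscle score, so muscle content and group cannot be told apart. The IL-31 counts rested on single libraries: 0 members of either set were called without IL-31 library 3 or 5 or PBS library 1, 2 or 3, 1 nuclear member without IL-31 library 1, 4 without IL-31 library 2 and 4 nuclear but 0 mitochondrial members without IL-31 library 4, and 7 mitochondrial and 21 or 18 nuclear members were called without PBS library 4 or 5. The mitochondrial count in IL-4 was 7 without IL-4 library 5 or PBS library 3. Without PBS libraries 1 to 3 together, 0 mitochondrial members were called after any cytokine, and 24, 3 and 0 nuclear ones. Fits of only the 2 groups compared called 5 and 1 mitochondrial and 34 and 19 nuclear members after IL-4 and IL-13.

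**Figure D1:**
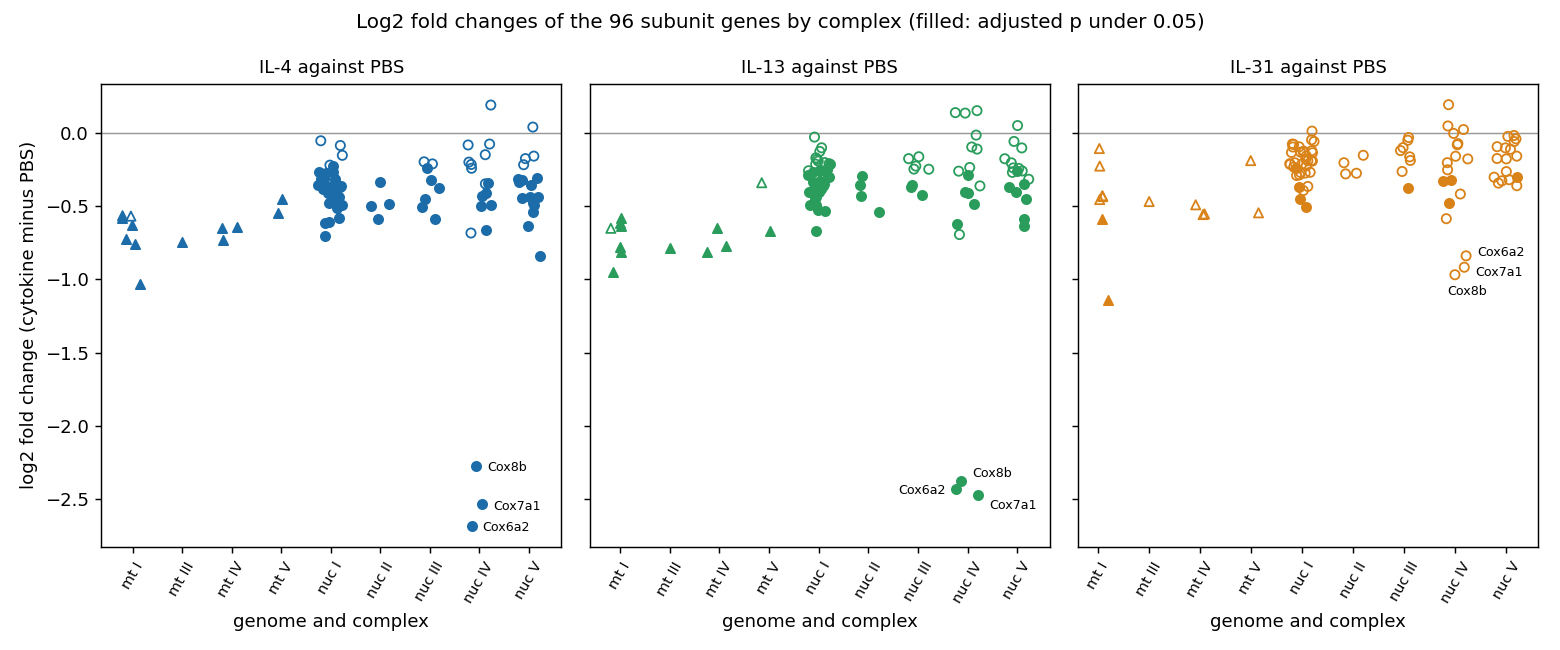
Log2 fold changes of the 96 subunit genes against PBS after IL-4, IL-13 and IL-31, grouped on the x axis by genome (mt, mitochondrial; nuc, nuclear) and complex; each point is 1 gene, triangles are mitochondrial genes, and filled symbols have an adjusted p under 0.05. Nearly all points lie below 0, and Cox6a2, Cox7a1 and Cox8b lie far below the rest in the IL-4 and IL-13 panels.

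Single libraries showed how far the groups were separated. The 13 mitochondrial mRNAs made up 2.67%, 2.63%, 2.70%, 2.57% and 2.31% of the linear signal of IL-4 libraries 1 to 5, and 2.07%, 3.72%, 2.03%, 2.39% and 2.15% of IL-13 libraries 1 to 5. They made up 3.15%, 2.93%, 2.26%, 2.97% and 2.92% of IL-31 libraries 1 to 5, against 4.54%, 5.19%, 5.70%, 3.13% and 3.10% of PBS libraries 1 to 5. For these shares all IL-4 libraries were below all PBS libraries, IL-13 library 2 and IL-31 library 1 lay within the PBS range, and PBS libraries 1 to 3 were the 3 highest of all 20. The 83 nuclear genes together made up 0.742 to 0.805% of IL-4 libraries, 0.758 to 0.848% of IL-13 libraries and 0.770 to 0.918% of IL-31 libraries, against 0.928 to 1.19% of PBS libraries. For this nuclear sum, no cytokine library reached the lowest PBS library.

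The mitochondrial and nuclear sets were also set against each other within each library, as the mitochondrial score minus the nuclear score. This difference was -0.20 to 0.06 in IL-4 libraries, -0.35 to 0.36 in IL-13 libraries and -0.15 to 0.03 in IL-31 libraries, against -0.02, 0.32, 0.71, 0.02 and -0.03 in PBS libraries 1 to 5. PBS libraries 2 and 3 and IL-13 library 2 were high, and the other 17 libraries lay between -0.35 and 0.06. The group means were -0.02 ± 0.11 in IL-4, -0.13 ± 0.28 in IL-13, -0.06 ± 0.08 in IL-31 and 0.20 ± 0.32 in PBS (SD, n = 5 each), so each difference from PBS (-0.22, -0.33 and -0.26) was smaller than the SD of PBS or close to it. No test was made of this difference.

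**Figure D2:**
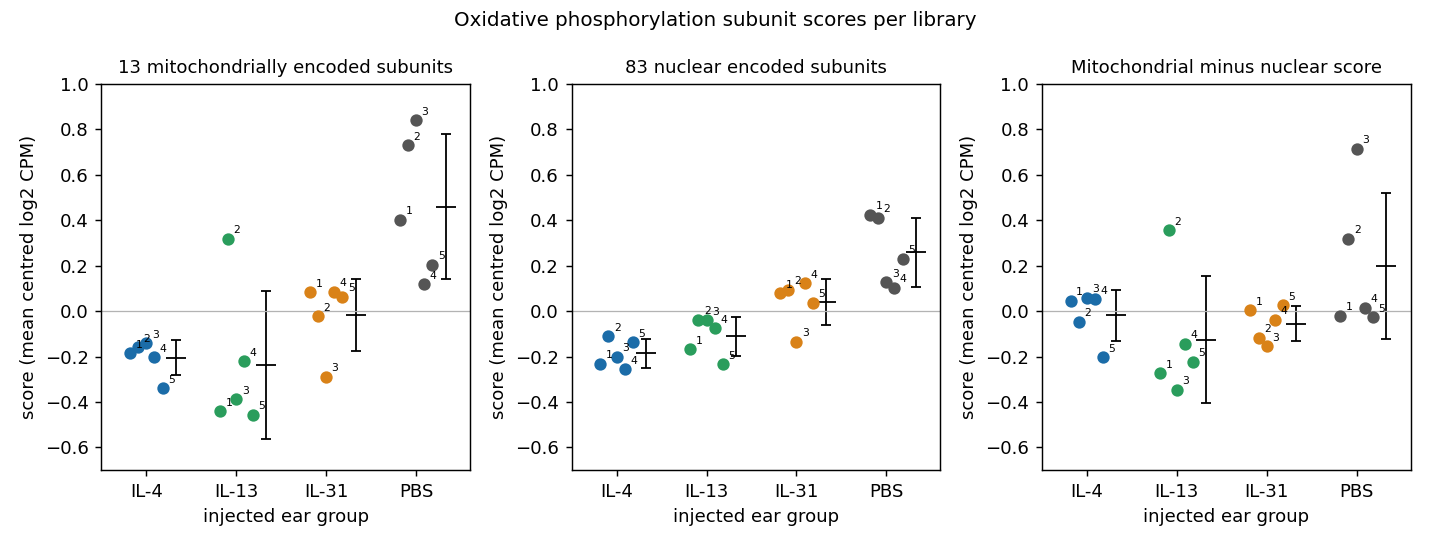
Score of the 13 mitochondrially encoded subunits (left), score of the 83 nuclear subunits (middle) and the mitochondrial minus the nuclear score (right), in mean centred log2 CPM, for IL-4, IL-13, IL-31 and PBS; points are libraries with their replicate number, and bars are the group mean ± SD (n = 5). The PBS means (0.46 and 0.26) are the highest for both sets, IL-13 library 2 lies within the PBS range for the mitochondrial set, and only PBS libraries 2 and 3 and IL-13 library 2 exceed 0.3 in the right panel.

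Among the mitochondrial mRNAs, levels per kilobase differed widely although the genes share 1 genome. On the log2 CPM per kilobase scale, mt-Co1, the catalytic core subunit of complex IV that carries its oxygen-reducing centre, was highest, at 12.33 in IL-4 ears and 13.07 in PBS ears. The lowest was mt-Nd4l, a small membrane subunit of complex I, at 8.001 in IL-4 ears and 8.57 in PBS ears. The nuclear subunits with the highest levels on this scale were Cox4i1 and Cox6a1, the widely expressed isoforms of the complex IV subunits 4 and 6a. Cox4i1 was at 8.11 in IL-4 ears, 8.21 in IL-13 ears and 8.32 in PBS ears, and Cox6a1 was at 8.11, 8.34 and 8.18. Lengths were the merged exons of all annotated transcripts of a gene, so this ranking depends on the annotation. Without division by length, the complex V genes Atp5b and Atp5a1 were highest of the nuclear members. Their means over the 20 libraries were 9.52 and 9.48 log2 CPM. Levels of the small mitochondrial genes depend on how reads in overlaps were assigned, which is not stated. The overlap of mt-Nd4l with mt-Nd4 is only 7 bases, 2.36% of mt-Nd4l. mt-Atp8 and mt-Atp6, read from 1 mRNA, were at 8.37 and 11.78 log2 CPM per kilobase in IL-4 ears. Values of the short genes mt-Nd4l (297 bases) and mt-Atp8 (204 bases) are therefore not read as mRNA abundance.

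mt-Nd3, a complex I membrane subunit (chrM:9459-9806, + strand), had the largest fall of the 13 in each of the 3 comparisons. It measured 7.93, 7.07, 6.92, 7.05 and 7.05 log2 CPM in IL-4 libraries 1 to 5, 6.83, 8.04, 7.31, 7.57 and 6.68 in IL-13 libraries, and 6.87, 7.15, 7.12, 6.75 and 7.58 in IL-31 libraries, against 8.57, 8.27, 8.88, 7.76 and 7.70 in PBS libraries. All IL-31 libraries were below all PBS libraries, whereas IL-4 library 1 and IL-13 library 2 lay above the 2 lowest PBS libraries. The log2 fold change was -1.03 ± 0.26 for IL-4 (adjusted p = 0.0115, limma), -0.95 ± 0.26 for IL-13 (adjusted p = 0.0162) and -1.14 ± 0.26 for IL-31 (adjusted p = 0.0221). The IL-13 call was lost without IL-13 library 5 (adjusted p = 0.0512), and the IL-31 call was lost on leaving out any 1 of 6 libraries (IL-31 libraries 3, 4 or 5 or PBS libraries 1, 2 or 3), with adjusted p between 0.0503 and 0.0693.

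mt-Nd6, the complex I subunit encoded alone on the opposite strand of the mitochondrial genome (chrM:13552-14070, - strand), was the other gene called for all 3 cytokines. It measured 7.66, 7.65, 7.44, 7.63 and 7.49 log2 CPM in IL-4 libraries, 7.43, 8.05, 7.45, 7.62 and 7.29 in IL-13 libraries, and 7.70, 7.55, 7.42, 7.64 and 7.78 in IL-31 libraries, against 8.62, 8.28, 8.44, 7.78 and 7.90 in PBS libraries. The IL-4 and IL-31 libraries were all below the PBS libraries, IL-31 library 5 only just, and IL-13 library 2 was above PBS libraries 4 and 5. It fell by 0.63 ± 0.15 after IL-4, by 0.63 ± 0.15 after IL-13 and by 0.59 ± 0.15 after IL-31 on the log2 scale (adjusted p = 0.00712, 0.00616 and 0.0273, limma). For IL-31 this call too was lost on leaving out any 1 of 6 libraries, the same ones as for mt-Nd3 (adjusted p 0.052 to 0.081). mt-Nd5 and mt-Nd6 overlap by 14 bases on opposite strands, and whether reads were counted by strand is not stated in the sources used here.

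The other complex I mRNAs fell less than mt-Nd3. mt-Nd4 and mt-Nd2, core subunits of the proton-pumping arm, had log2 fold changes of -0.76 and -0.72 after IL-4 and -0.78 and -0.82 after IL-13, all 4 called. Their IL-31 values of -0.43 each were not called. mt-Nd1, the subunit at the ubiquinone site, fell by 0.58 on the log2 scale after IL-4 and by 0.58 after IL-13. mt-Nd5 fell by 0.62 after IL-13, was at -0.57 after IL-4 without passing the test (adjusted p = 0.0521, limma), and lost its IL-13 call without any 1 of 6 libraries. mt-Nd4l did not pass in any comparison, with log2 fold changes of -0.57, -0.65 and -0.11 after IL-4, IL-13 and IL-31. PBS library 1 was the lowest of all 20 for mt-Nd4l, at 5.66 log2 CPM where PBS libraries 2 to 5 had 6.87 to 7.45. Without it the IL-4 and IL-13 values were -0.85 and -0.94 and passed (adjusted p = 0.00633 and 0.00452).

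mt-Cytb, the only mitochondrially encoded subunit of complex III, fell by 0.75 ± 0.17 after IL-4 and by 0.78 ± 0.17 after IL-13 on the log2 scale (adjusted p = 0.00712 and 0.00492, limma), and was at -0.47 after IL-31 without passing the test. The 3 complex IV mRNAs fell after IL-4 and IL-13. mt-Co1 measured 12.93, 13.004, 13.10, 12.995 and 12.78 log2 CPM in IL-4 libraries, 12.72, 13.45, 12.80, 12.91 and 12.74 in IL-13 libraries, and 13.39, 13.24, 12.87, 13.29 and 13.22 in IL-31 libraries, against 13.70, 14.01, 14.03, 13.35 and 13.38 in PBS libraries. All IL-4 libraries were below all PBS libraries, while IL-13 library 2 and IL-31 library 1 reached the PBS range. Its log2 fold change was -0.73 ± 0.20 for IL-4 and -0.77 ± 0.20 for IL-13 (adjusted p = 0.0166 and 0.0115), and -0.49 ± 0.20 for IL-31 (adjusted p = 0.141). mt-Co2 and mt-Co3, the copper-binding subunit and a core subunit, had -0.64 and -0.65 after IL-4 and -0.65 and -0.81 after IL-13, all called, and -0.55 and -0.56 after IL-31, not called. The IL-4 call of mt-Co2 was lost without IL-4 library 5, PBS library 1 or PBS library 3 (adjusted p 0.05 to 0.055). The IL-4 call of mt-Co3 was lost without any 1 of 6 libraries (IL-4 libraries 3, 4 or 5 or PBS libraries 1, 2 or 3; adjusted p 0.0515 to 0.07), and the IL-13 call of mt-Co2 was lost without IL-13 library 5 (adjusted p = 0.0506).

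The 2 mitochondrial subunits of ATP synthase are read from 1 mRNA with overlapping reading frames. mt-Atp6, the proton channel subunit, had log2 fold changes of -0.55, -0.67 and -0.55 after IL-4, IL-13 and IL-31, the first 2 called (adjusted p = 0.0483 and 0.0177). mt-Atp8, a small membrane subunit, had -0.45, -0.34 and -0.19, with only the IL-4 value called (adjusted p = 0.0394). The IL-4 calls of mt-Atp6 and mt-Atp8 were lost without any 1 of 8 and any 1 of 7 libraries. The overlap covers 43 bases, 21.1% of mt-Atp8 and 6.31% of mt-Atp6, so reads there cannot be given to 1 of the genes. It is shown because it bounds how far the levels of both genes can be read, from the GENCODE M21 transcripts (build GRCm38), with the start codon of mt-Atp6 in capitals.
mt-Atp8 and mt-Atp6 overlap (chrM:7927-7969, + strand): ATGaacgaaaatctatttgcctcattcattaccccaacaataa

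**Figure D3:**
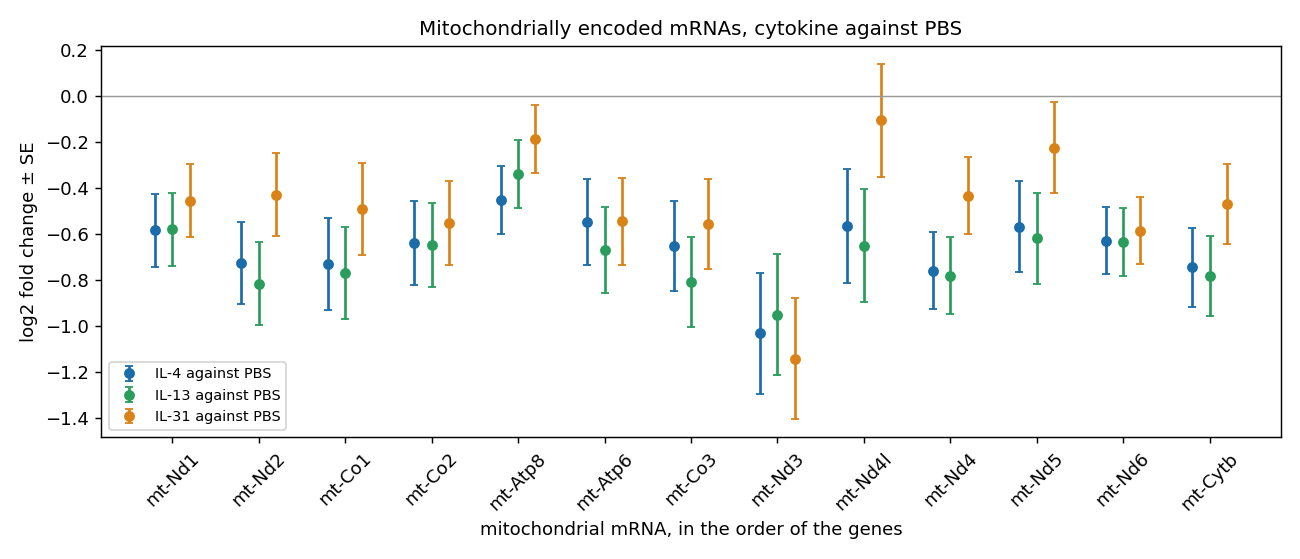
Log2 fold change ± SE of the 13 mitochondrially encoded mRNAs against PBS after IL-4, IL-13 and IL-31, in the order of the genes along the mitochondrial genome. All values are below 0, mt-Nd3 is lowest in each comparison, and the IL-31 values of mt-Nd4l and mt-Atp8 (-0.11 and -0.19) are the nearest to 0.

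The 2 mitochondrial rRNAs also fell after each cytokine, and after IL-31 by more than the mRNA median of -0.47. mt-Rnr1 and mt-Rnr2 fell by 0.65 and 0.77 after IL-4, by 0.80 and 0.92 after IL-13 and by 0.89 and 0.81 after IL-31 on the log2 scale, all 6 called (adjusted p at most 0.0264, limma). mt-Rnr1 measured 8.34, 8.33, 8.29, 8.36 and 8.15 log2 CPM in IL-31 libraries, against 9.50, 8.83, 9.63, 8.35 and 9.62 in PBS libraries. PBS library 4 was at the IL-31 level and the other PBS libraries were above it. In the PBS libraries mt-Co1 measured 13.35 to 14.03 log2 CPM, far above this rRNA. How the rRNA levels depend on library preparation was not tested.

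Complex I has the most nuclear subunits. After IL-4, 32 of its 36 nuclear genes fell, against 23 after IL-13 and 4 after IL-31, with median log2 fold changes of -0.37, -0.30 and -0.19. Ndufa13, an accessory subunit, fell most of them in all 3 comparisons. It measured 5.88, 5.96, 5.79, 5.74 and 6.17 log2 CPM in IL-4 libraries, 5.71, 6.18, 5.90, 5.97 and 5.94 in IL-13 libraries, and 6.001, 6.34, 5.93, 6.04 and 6.21 in IL-31 libraries, against 6.92, 6.86, 6.47, 6.50 and 6.30 in PBS libraries. The IL-4 and IL-13 libraries were all below the PBS libraries, and IL-31 library 2 was just above PBS library 5. It fell by 0.70 ± 0.12, 0.67 ± 0.12 and 0.51 ± 0.12 on the log2 scale after IL-4, IL-13 and IL-31 (adjusted p = 0.00145, 0.00198 and 0.0239, limma). The IL-31 call of Ndufa13 was lost without any 1 of 7 libraries (IL-31 libraries 1, 3, 4 or 5 or PBS libraries 1, 2 or 3; adjusted p 0.0513 to 0.0796). The other 3 complex I genes that fell after IL-31 were Ndufa3, Ndufb2 and Ndufb3, accessory subunits with log2 fold changes of -0.37, -0.45 and -0.24. After IL-4, the 4 complex I genes that did not pass were Ndufa7, Ndufab1, Ndufb11 and Ndufv3.

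Complex II, with its 4 nuclear subunits and no mitochondrial one, fell as a whole after IL-4 and after IL-13, 4 of 4 genes each, and 0 of 4 passed after IL-31 (2 at an unadjusted p under 0.05 with limma, the only tool run). Sdhb, the iron-sulfur subunit, measured 5.89, 5.86, 6.08, 5.96 and 6.02 log2 CPM in IL-4 libraries, 6.01, 6.16, 5.90, 6.07 and 5.92 in IL-13 libraries, and 6.28, 6.37, 6.04, 6.37 and 6.33 in IL-31 libraries, against 6.49, 6.98, 6.27, 6.40 and 6.61 in PBS libraries. The IL-4 and IL-13 libraries were all below the PBS libraries, and 4 of the 5 IL-31 libraries lay above PBS library 3. Sdhb fell by 0.59 ± 0.10 after IL-4 and by 0.54 ± 0.10 after IL-13 on the log2 scale (adjusted p = 0.00161 and 0.00264), and was at -0.27 ± 0.10 after IL-31 (adjusted p = 0.118).

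In complex III, 6, 3 and 1 of the 8 nuclear genes fell after IL-4, IL-13 and IL-31. Uqcr10, a small accessory subunit, fell by 0.59 ± 0.12 after IL-4 and by 0.36 ± 0.12 after IL-13 on the log2 scale (adjusted p = 0.00298 and 0.0362, limma), and the IL-13 call was lost without any 1 of 6 libraries. Uqcrq, another small subunit, was the 1 complex III gene called after IL-31, at -0.37 ± 0.11 (adjusted p = 0.042), and lost this call without any 1 of 7 libraries (IL-31 libraries 1, 2, 3 or 5 or PBS libraries 1, 2 or 3; adjusted p 0.0627 to 0.126). Its log2 fold changes were -0.50 after IL-4 and -0.43 after IL-13, both called. The core subunit gene Uqcrc1 and the hinge subunit gene Uqcrh did not pass after IL-4.

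In complex V, 13, 7 and 1 of the 17 nuclear genes fell after IL-4, IL-13 and IL-31. The 3 genes Atp5g1, Atp5g2 and Atp5g3 encode the same mature c subunit of the rotor ring. Atp5g1 measured 6.13, 6.25, 6.23, 6.07 and 6.21 log2 CPM in IL-4 libraries, 6.29, 6.47, 6.48, 6.46 and 6.22 in IL-13 libraries, and 6.70, 6.78, 6.32, 6.93 and 6.76 in IL-31 libraries, against 7.11, 7.20, 6.71, 6.94 and 7.13 in PBS libraries. All IL-4 and all IL-13 libraries were below all PBS libraries. It fell by 0.84 ± 0.10 after IL-4 and by 0.63 ± 0.10 after IL-13 on the log2 scale (adjusted p = 0.00051 and 0.00142), and was at -0.32 ± 0.10 after IL-31 (adjusted p = 0.0705). Atp5g3 fell by 0.44 ± 0.10 after IL-4 and by 0.37 ± 0.10 after IL-13, and Atp5g2 had values of -0.16 ± 0.17 and 0.05 ± 0.17 that did not pass. Differences between these 3 genes were not tested. Atp5j, a coupling factor of the stalk, was the 1 complex V gene called after IL-31, at -0.30 ± 0.08 (adjusted p = 0.0388), and its call was lost without any 1 of the same 7 libraries as for Uqcrq (adjusted p 0.0613 to 0.11).

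Complex IV spanned the widest range of fold changes. After IL-4, 9 of its 18 nuclear genes fell, against 8 after IL-13 and 3 after IL-31. Cox7b, a small subunit of the complex, fell by 0.66 ± 0.11, 0.62 ± 0.11 and 0.48 ± 0.11 on the log2 scale after IL-4, IL-13 and IL-31 (adjusted p = 0.00142, 0.00212 and 0.0237, limma). Its IL-31 call was lost without IL-31 library 3 or 5 or PBS library 1, 2 or 3 (adjusted p 0.0549 to 0.0777). Cox5b and Cox6c, also nuclear subunits of complex IV, were the other 2 genes called after IL-31, at -0.32 and -0.33. The 9 genes that did not pass after IL-4 were Cox4i1, Cox4i2, Cox5a, Cox6a1, Cox6b2, Cox7a2l, Cox8a, Ndufa4 and Ndufa4l2.

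The muscle isoforms of complex IV fell further after IL-4 and IL-13 than any other subunit of either genome. Cox6a2 (chr7:128205435-128206387) measured 1.25, 4.16, 4.12, 3.53 and 3.73 log2 CPM in IL-4 libraries, 2.92, 4.69, 2.89, 4.33 and 3.23 in IL-13 libraries, and 5.64, 5.76, 3.57, 5.53 and 5.50 in IL-31 libraries, against 6.25, 6.81, 5.29, 5.84 and 5.996 in PBS libraries. All IL-4 and IL-13 libraries were below all PBS libraries, IL-4 library 1 was by far the lowest, and IL-31 library 3 was the only IL-31 library at the IL-4 and IL-13 level. The log2 fold change was -2.68 ± 0.52 for IL-4 and -2.43 ± 0.52 for IL-13 (adjusted p = 0.00261 and 0.00399, limma), which leaves 15.6% and 18.6% of the PBS level, and -0.84 ± 0.52 for IL-31 (adjusted p = 0.324).

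Its widely expressed counterpart Cox6a1 (chr5:115345642-115348981) measured 7.34 to 7.73 log2 CPM in IL-4 libraries, 7.71 to 8.11 in IL-13 libraries and 7.48 to 7.78 in IL-31 libraries, against 7.46 to 7.88 in PBS libraries. The groups overlapped, and no comparison with PBS passed, with log2 fold changes of -0.08 ± 0.10, 0.15 ± 0.10 and -0.00 ± 0.10 after IL-4, IL-13 and IL-31. The IL-31 value changed sign on leaving out some single libraries (range -0.06 to 0.05), and the IL-13 value was -0.11 with the muscle score described below as a covariate.

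Cox7a1 (chr7:30184144-30186078) measured 0.50, 3.18, 3.14, 2.15 and 2.94 log2 CPM in IL-4 libraries, 1.57, 3.47, 2.08, 3.23 and 1.88 in IL-13 libraries, and 4.36, 4.43, 2.81, 4.23 and 4.16 in IL-31 libraries, against 5.31, 5.76, 4.28, 4.60 and 4.64 in PBS libraries. It fell by 2.54 ± 0.48 after IL-4 and by 2.47 ± 0.48 after IL-13 on the log2 scale (adjusted p = 0.00239 and 0.00264), with no overlap of either group with PBS, and was at -0.92 ± 0.48 after IL-31 (adjusted p = 0.251). Cox7a2 (chr9:79755361-79759878), the widely expressed form, also fell but by less, by 0.43 ± 0.08 after IL-4 and by 0.29 ± 0.08 after IL-13 (adjusted p = 0.00281 and 0.021). Its IL-13 call was lost without IL-13 library 5 or PBS library 1 (adjusted p = 0.0564 to 0.0652).

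Cox8b (chr7:140898945-140900446) measured 1.47, 3.13, 3.59, 2.97 and 3.09 log2 CPM in IL-4 libraries, 1.83, 3.67, 2.41, 3.56 and 2.26 in IL-13 libraries, and 4.66, 4.53, 2.80, 4.33 and 4.44 in IL-31 libraries, against 5.77, 5.83, 4.37, 4.76 and 4.87 in PBS libraries. It fell by 2.27 ± 0.44 after IL-4 and by 2.37 ± 0.44 after IL-13 (adjusted p = 0.00254 and 0.00215), again with no overlap with PBS, and was at -0.97 ± 0.44 after IL-31 (adjusted p = 0.185). Cox8a (chr19:7215153-7217616) lay between 6.52 and 6.89 log2 CPM in every library, and its log2 fold changes of -0.08, -0.01 and -0.07 did not pass. Without PBS libraries 1 to 3 these Cox8a values were 0.03, 0.10 and 0.04.

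**Figure D4:**
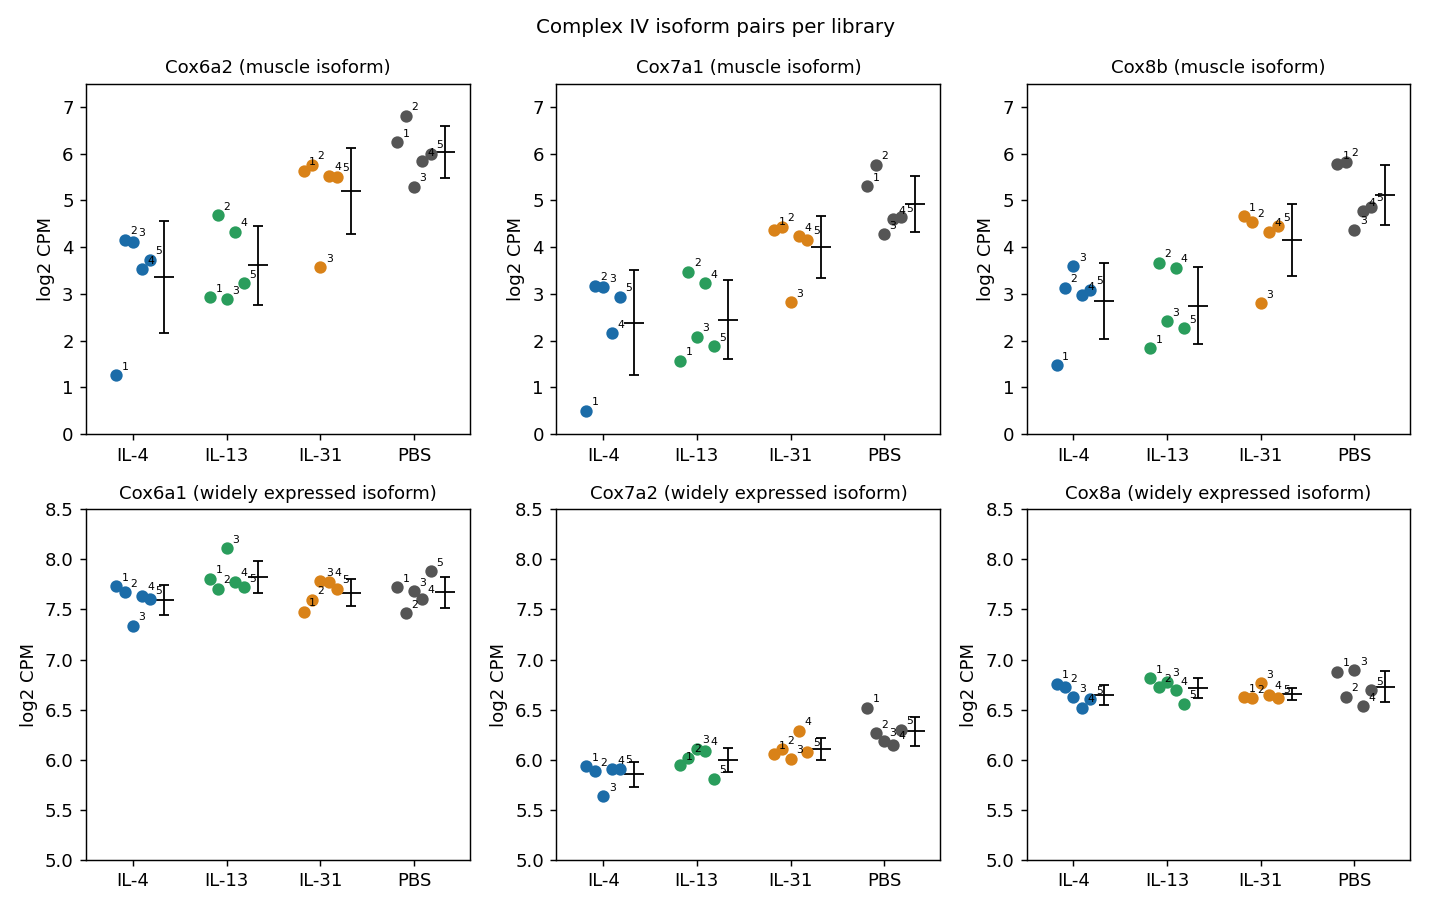
Log2 CPM of the muscle isoforms Cox6a2, Cox7a1 and Cox8b (top, axis 0 to 7.5) and of their widely expressed counterparts Cox6a1, Cox7a2 and Cox8a (bottom, axis 5 to 8.5) in IL-4, IL-13, IL-31 and PBS libraries; points are libraries with their replicate number, and bars are the group mean ± SD (n = 5). IL-4 and IL-13 libraries lie below all PBS libraries in the 3 upper panels, and IL-31 library 3 lies apart from the other IL-31 libraries there.

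Other complex IV and related isoform pairs gave no such split. Cox4i2, the lung and hypoxia-associated form of subunit 4, had log2 fold changes of -0.15, -0.36 and -0.42 and Cox4i1 had -0.22, -0.11 and -0.08, none called. For Cox6b1, the common form of subunit 6b, the IL-4 fall of 0.34 ± 0.09 passed (adjusted p = 0.012, limma), and its testis form Cox6b2, at 0.63 ± 0.29 log2 CPM in IL-4 ears and 1.31 ± 0.70 in PBS ears (SD, n = 5 each), had -0.68, -0.69 and -0.59 without passing. Without PBS library 5, Cox6b2 passed after all 3 cytokines, at -0.98, -0.99 and -0.88 (adjusted p = 0.0185, 0.014 and 0.0363, limma). Ndufa4, a complex IV-associated subunit, had -0.20, -0.10 and 0.02, and its hypoxia-inducible relative Ndufa4l2 had -0.24, 0.14 and 0.05, none called. Cox7a2l, a relative of Cox7a2 that links complexes III and IV, had positive values of 0.19, 0.14 and 0.19 that did not pass. The signs of Cox4i1, Cox4i2, Cox6b2, Ndufa4 and Ndufa4l2 changed under other settings.

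Since the isoforms split so sharply, the promoters of 2 muscle isoforms (Cox8b and Cox7a1) and 3 widely expressed ones (Cox8a, Cox7a2 and Cox6a1) are shown from RefSeq (GRCm38.p6), 250 bases before to 50 after the gene start, in the direction of transcription. Capitals mark 4 motifs searched on both strands: the NRF1 half-site GCGCATG, whose copies on the 2 strands overlap in a full NRF1 site, the ETS motif CCGGAAG, which reads CTTCCGG where it lies on the other strand, the E-box CAGCTG of muscle regulatory factors and the TATA box TATAAA.
Cox8b (chr7:140900397-140900696, - strand): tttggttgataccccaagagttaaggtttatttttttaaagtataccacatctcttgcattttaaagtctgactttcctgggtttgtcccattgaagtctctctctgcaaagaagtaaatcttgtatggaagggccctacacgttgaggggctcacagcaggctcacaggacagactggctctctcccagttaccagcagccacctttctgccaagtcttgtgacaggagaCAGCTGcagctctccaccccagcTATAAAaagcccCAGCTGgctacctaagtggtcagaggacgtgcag
Cox8a (chr19:7217567-7217866, - strand): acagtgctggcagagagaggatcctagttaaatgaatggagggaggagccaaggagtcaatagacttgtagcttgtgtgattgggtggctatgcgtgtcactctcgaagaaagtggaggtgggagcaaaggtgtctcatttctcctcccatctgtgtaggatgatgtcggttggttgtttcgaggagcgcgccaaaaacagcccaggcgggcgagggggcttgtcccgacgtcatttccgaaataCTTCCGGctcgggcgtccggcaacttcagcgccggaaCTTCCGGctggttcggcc
Cox7a1 (chr7:30183921-30184220, + strand): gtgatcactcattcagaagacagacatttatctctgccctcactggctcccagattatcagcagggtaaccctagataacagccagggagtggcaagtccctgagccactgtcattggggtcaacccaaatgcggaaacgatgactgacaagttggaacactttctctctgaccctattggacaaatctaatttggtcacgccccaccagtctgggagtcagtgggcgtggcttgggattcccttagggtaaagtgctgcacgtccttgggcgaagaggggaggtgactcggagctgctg
Cox7a2 (chr9:79759804-79760103, - strand): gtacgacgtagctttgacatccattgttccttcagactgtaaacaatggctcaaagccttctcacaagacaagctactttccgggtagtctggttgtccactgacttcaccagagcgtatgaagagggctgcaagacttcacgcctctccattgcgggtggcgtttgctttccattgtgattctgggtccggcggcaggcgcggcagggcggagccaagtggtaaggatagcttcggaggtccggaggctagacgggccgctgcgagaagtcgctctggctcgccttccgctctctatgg
Cox6a1 (chr5:115348909-115349208, - strand): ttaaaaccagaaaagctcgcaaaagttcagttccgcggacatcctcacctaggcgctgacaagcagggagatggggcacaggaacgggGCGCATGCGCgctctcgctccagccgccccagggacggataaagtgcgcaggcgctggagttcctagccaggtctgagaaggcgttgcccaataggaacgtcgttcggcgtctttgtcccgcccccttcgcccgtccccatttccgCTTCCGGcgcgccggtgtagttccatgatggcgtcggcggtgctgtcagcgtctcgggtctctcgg

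In these windows Cox8b, a muscle isoform, held 2 copies of CAGCTG and 1 of TATAAA, and its counterpart Cox8a held 2 ETS motifs. Cox7a1, the other muscle isoform shown, and its counterpart Cox7a2 held none of the 4, and the widely expressed Cox6a1 held 2 overlapping NRF1 half-sites and 1 ETS motif. RefSeq promoters matched 66 of the 83 nuclear members. The NRF1 half-site was in 13 of the 66 (19.7%), against 3.91% of all 32851 promoters, and the ETS motif was in 16 (24.2%), against 8.86% of all promoters. CAGCTG was in 6 (9.09%), against 16.3%, and TATAAA was in 6 (9.09%), against 13.6%. Members were counted once per gene, with a motif in any of its promoters, whereas all promoters were counted singly. The shares of members and of all promoters are therefore not the same measure. Of the 51 matched members called lower after IL-4, 9 held the NRF1 half-site and 12 the ETS motif, and of the 15 not called, 4 and 4 did. CAGCTG was in 6 of those 51 and 0 of those 15. A match is a description of these letters and not of binding.

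Skeletal muscle markers moved with the subunits. Of 26 muscle markers, all of which passed the low-value filter, 25 fell after IL-4, 23 after IL-13 and 0 after IL-31 (limma; median log2 fold changes -2.59, -2.53 and -0.79), among them Ckm, muscle creatine kinase, at -3.27, -3.03 and -1.11. After IL-31, 1 of the 26 had an unadjusted p under 0.05. Together they made up 0.0718 to 0.536% of IL-4 libraries, 0.145 to 0.6% of IL-13 libraries and 0.289 to 1.34% of IL-31 libraries, against 1.04 to 3.05% of PBS libraries. The muscle score was -2.89, -0.99, -0.06, -1.55 and -0.62 in IL-4 libraries 1 to 5, -1.73, 0.31, -1.86, -0.42 and -1.61 in IL-13 libraries, and 1.05, 1.31, -0.81, 0.89 and 1.12 in IL-31 libraries, against 1.58, 2.60, 0.69, 1.42 and 1.58 in PBS libraries. Every IL-4 and every IL-13 library was below every PBS library, so the muscle score and the group cannot be told apart there.

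Some libraries with an extreme muscle score also had extreme subunit scores, and others did not. IL-31 library 3, the only IL-31 library with a negative muscle score, also had the lowest mitochondrial score (-0.29 against -0.02 to 0.08 in the other IL-31 libraries) and the lowest nuclear score (-0.13 against 0.04 to 0.12). IL-13 library 2, with the highest muscle score of its group, had the highest mitochondrial score (0.32 against -0.46 to -0.22). IL-4 library 1 had the lowest muscle score of all 20, and its complex IV score of -0.48, which contains the muscle isoforms, was the lowest too. So was its complex II score of -0.33, which holds none of those isoforms. Its complex I score of -0.13 lay within the IL-4 range of -0.23 to -0.10. The complex III and V scores of this library, -0.16 and -0.20, also lay within the range of the other IL-4 libraries. PBS library 2 had the highest muscle score of all 20 (2.60), the highest complex II score (0.59) and a mitochondrial score of 0.73. PBS library 3 had the lowest PBS muscle score (0.69) and the highest mitochondrial score of all 20 (0.84).

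**Figure D5:**
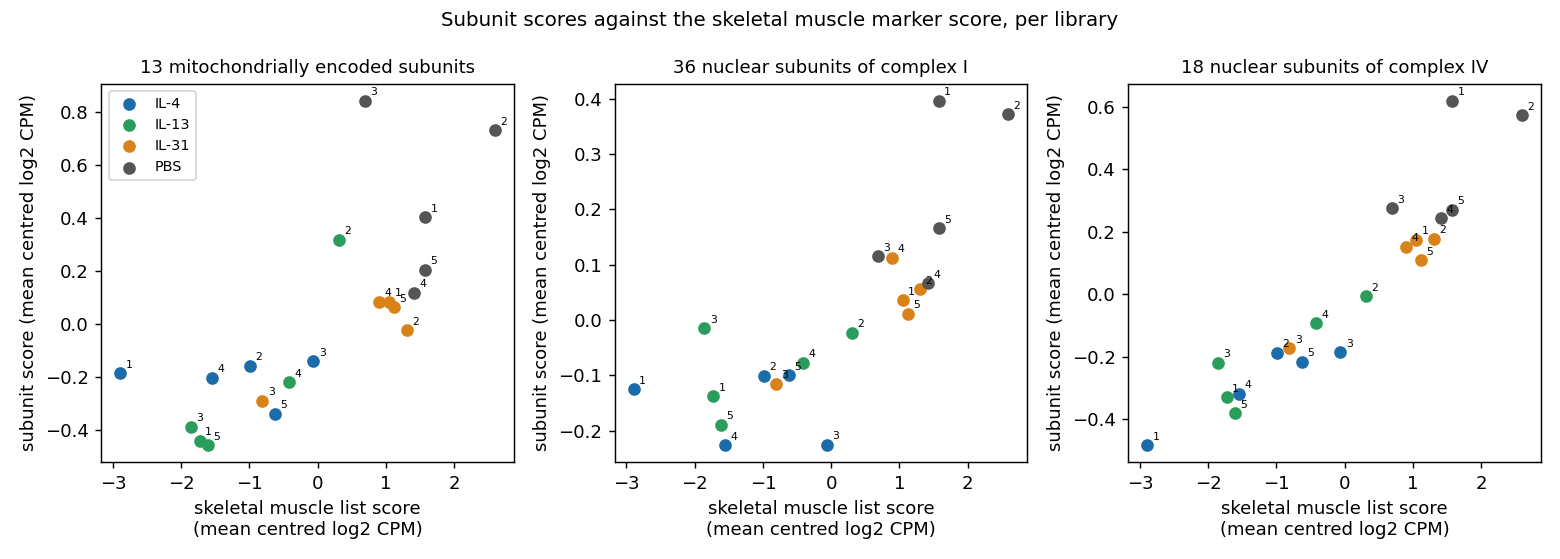
Scores of the 13 mitochondrially encoded subunits, the 36 nuclear subunits of complex I and the 18 nuclear subunits of complex IV (y axes) against the score of 26 skeletal muscle markers (x axes), all in mean centred log2 CPM; points are the 20 libraries, coloured by group and numbered by replicate. The complex IV panel contains the 3 muscle isoforms. IL-4 and IL-13 libraries lie left of all PBS libraries, and PBS library 3 has the highest mitochondrial score (0.84) at a muscle score of 0.69.

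Without Cox6a2, Cox7a1 and Cox8b, 61, 42 and 9 of the remaining 80 genes fell after IL-4, IL-13 and IL-31, at medians of -0.37, -0.29 and -0.19. The fits were not rerun, so these counts differ from the full set only by the 3 genes left out. The nuclear score, a mean over genes, differed from PBS by -0.45, -0.37 and -0.22 with the 3 genes. Without them it differed by -0.37, -0.29 and -0.19. With the muscle score as a covariate, no member passed in any comparison with PBS (limma), and of all tested genes only 3, 2 and 6 passed after IL-4, IL-13 and IL-31. The median log2 fold changes in that fit were -0.33, -0.36 and -0.37 for the mitochondrial and -0.23, -0.17 and -0.15 for the nuclear set, and 1, 1 and 6 mitochondrial and 28, 14 and 22 nuclear members had an unadjusted p under 0.05. Without PBS libraries 1 to 3, the 3 that stood apart, the mitochondrial set had 0, 0 and 0 genes called after IL-4, IL-13 and IL-31 (medians -0.40, -0.44 and -0.16) and the nuclear set had 24, 3 and 0 (medians -0.32, -0.24 and -0.12), with 7.29%, 2.34% and 0% of all tested genes called. At an unadjusted p under 0.05 the mitochondrial counts there were 6, 6 and 0 and the nuclear counts 57, 40 and 8.

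Differentiated epidermis markers moved the other way. Of 20, 12 rose after IL-4, 16 after IL-13 and 13 after IL-31 (median log2 fold changes 1.18, 1.44 and 1.41). All 5 cytokine libraries lay above all 5 PBS libraries for 1, 0 and 5 of the 20. The share of all tested genes that did so was not computed. The epidermis score was -1.34, -1.94 and -2.32 in PBS libraries 1 to 3. PBS libraries 4 and 5, at 0.09 and 0.21, lay within the range of the cytokine libraries. With this epidermis score as a covariate, a setting chosen after seeing the data, 0 mitochondrial members were called after any cytokine, and 46, 0 and 0 nuclear members were called after IL-4, IL-13 and IL-31 (limma; 5, 3 and 0 mitochondrial and 64, 46 and 13 nuclear at an unadjusted p under 0.05). In that fit 10.2%, 0.0243% and 0% of all tested genes were called. Of the other marker lists, 6 of 12 endothelial genes and 4 of 10 adipocyte genes fell after IL-13, against 3 and 0 after IL-4, and 0 of 10 neutrophil and 0 of 10 cartilage genes passed in any comparison with PBS (at an unadjusted p under 0.05, 1 of each list after IL-4 and 0 after IL-13 and IL-31; for adipocyte genes after IL-4 it was 4). The neutrophil list had median log2 fold changes of -2.06, -1.42 and -1.22 after IL-4, IL-13 and IL-31. At an unadjusted p under 0.05 the endothelial counts were 10 and 9 of 12 after IL-4 and IL-13, with medians of -0.61 and -0.67. Of 10 fibroblast genes, 2 fell after IL-4 and after IL-13 (8 and 6 at an unadjusted p under 0.05, medians -0.64 and -0.54). The share of all tested genes called lower was 9.63% and 9.8% there. Basal keratinocyte genes rose in 4 of 10 after IL-4 (8.22% of all tested genes rose), 1 after IL-13 (9.94%) and 1 after IL-31 (5.18%). The single genes after IL-13 and after IL-31 do not set the basal keratinocyte list apart from all tested genes. The part of these markers in the subunit results was not tested beyond the 2 covariates.

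No gene in the table passed the test between 2 cytokines (0% of all tested genes). At an unadjusted p under 0.05 (limma, the only tool run), 664 genes differed between IL-4 and IL-13, 1743 between IL-4 and IL-31 and 1200 between IL-13 and IL-31. Among the nuclear members this held for 4, 32 and 10 of 83, and among the mitochondrial members for 0, 0 and 2 of 13. The smallest adjusted p of a member was 0.174 in IL-4 against IL-31, shared by 5 nuclear genes: the muscle isoform Cox6a2 at -1.84 ± 0.52, Atp5g1 at -0.52 ± 0.10, Ndufs8, an iron-sulfur subunit of complex I, at -0.38, the stalk subunit gene Atp5o at -0.36, and Ndufb4, a complex I accessory subunit, at -0.30. Among the nuclear members, 7 had all IL-4 libraries below all IL-31 libraries, Atp5g1, Atp5o and Ndufb4 included, where 1.76% of all tested genes did. For IL-13 against IL-31 it was 3 nuclear members and 0.668% of all tested genes, and for IL-4 against IL-13 it was 0 and 0.45%. The larger count of calls after IL-4 and IL-13 than after IL-31 is therefore not shown to be a difference between cytokines. Without IL-31 library 3, 6 nuclear members passed in IL-4 against IL-31 and 3 in IL-13 against IL-31.

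Genes around the respiratory chain were examined as lists. The values of the muscle markers above stand beside each of them. Of 16 genes of pyruvate dehydrogenase and the citric acid cycle, which supply the NADH and succinate, 13 fell after IL-4, 12 after IL-13 and 2 after IL-31. Idh3a, the catalytic subunit of NAD-dependent isocitrate dehydrogenase, fell by 0.68 ± 0.13 and 0.62 ± 0.13 on the log2 scale after IL-4 and IL-13 (adjusted p = 0.00209 and 0.0032, limma). After IL-31 the 2 were Idh3g, a regulatory subunit of that enzyme, and Dlst, the transferase of the 2-oxoglutarate dehydrogenase complex, at -0.33 and -0.24.

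Of 10 genes for cytochrome c, carriers and channels, 6 fell and 1 rose after IL-4, 5 fell and 1 rose after IL-13, and 0 passed after IL-31 (4 at an unadjusted p under 0.05, limma). A single rise does not set this list apart from all tested genes, of which 8.22% and 9.94% rose after IL-4 and IL-13. Slc25a4, the ADP/ATP carrier of heart and muscle, measured 6.85, 7.63, 7.56, 7.32 and 7.56 log2 CPM in IL-4 libraries and 7.21, 7.83, 7.13, 7.67 and 7.18 in IL-13 libraries, against 9.07, 9.60, 8.48, 8.85 and 8.83 in PBS libraries. Both cytokine groups were below all PBS libraries, and it fell by 1.58 ± 0.23 and 1.56 ± 0.23 on the log2 scale (adjusted p = 0.000893 and 0.00126). Cyc1, the cytochrome c1 of complex III, which the symbol rule does not cover, fell by 0.53 after IL-4 and by 0.34 after IL-13. Vdac3, an outer membrane channel, fell by 0.52 and 0.60.

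The factors that build the chain and express the mitochondrial genome were examined next. Of 46 assembly factors, 6 fell and 1 rose after IL-4, 3 fell and 1 rose after IL-13, and 0 passed after IL-31 (9 at an unadjusted p under 0.05, limma). Uqcc1 and Uqcc2, complex III assembly factors, fell by 0.47 and 0.54 after IL-4, and Cox16, a complex IV assembly factor, fell by 0.56 after IL-13. Of 78 mitochondrial ribosomal proteins, 6, 5 and 1 fell after IL-4, IL-13 and IL-31, led by Mrpl42 at -0.65 and -0.42 after IL-4 and IL-13 and Mrps21 at -0.35 and -0.32, and Mrps33 at -0.30 was the 1 after IL-31. Of 29 genes for replication, transcription and RNA handling of mitochondrial DNA, 2, 2 and 1 fell and 0, 1 and 1 rose. Slirp, which stabilises mitochondrial mRNAs, fell by 0.50, 0.41 and 0.40 on the log2 scale after IL-4, IL-13 and IL-31 (adjusted p = 0.00638, 0.018 and 0.042), and Fastk fell by 0.34 and 0.27 after IL-4 and IL-13. Fastkd5, needed for processing some mitochondrial mRNAs, rose by 0.57 after IL-13, and Trmt10c, a subunit of mitochondrial RNase P, rose by 0.37 after IL-31. Of all tested genes, 9.63%, 9.8% and 1.2% were called lower after IL-4, IL-13 and IL-31. The median log2 fold changes of the ribosomal list (-0.09, -0.04 and -0.07) and of the DNA and RNA list (-0.02, -0.04 and -0.04) were near those of all tested genes, and those of the assembly factors were -0.14, -0.13 and -0.14.

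Of 14 regulators of mitochondrial gene programmes, 3 fell after IL-4, 3 fell and 1 rose after IL-13, and 0 passed after IL-31 (3 at an unadjusted p under 0.05, limma). The single rise does not set these regulators apart from all tested genes, of which 9.94% rose after IL-13. Ppargc1a, the coactivator PGC-1 alpha, measured 1.25, 2.17, 1.68, 1.52 and 1.63 log2 CPM in IL-4 libraries and 0.28, 1.83, 0.83, 2.05 and 1.00 in IL-13 libraries, against 2.95, 3.56, 2.92, 2.89 and 2.68 in PBS libraries. No IL-4 or IL-13 library reached the PBS range, and it fell by 1.35 ± 0.30 and 1.80 ± 0.30 on the log2 scale (adjusted p = 0.00601 and 0.00162, limma). Esrrb, an estrogen-related receptor, fell by 1.90 and 2.24, at low levels of -0.89 ± 0.80 log2 CPM in IL-4 ears and 1.00 ± 0.47 in PBS ears (SD, n = 5 each).

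Genes of glycolysis, the cytosolic route to ATP, moved in both directions. Of 18 tested genes, 11 fell and 1 rose after IL-4, 9 fell and 3 rose after IL-13, and 3 fell and 2 rose after IL-31. Of all tested genes, 9.63%, 9.8% and 1.2% fell and 8.22%, 9.94% and 5.18% rose after IL-4, IL-13 and IL-31. The single rise after IL-4 does not set the list apart from all tested genes. Eno3, the muscle enolase, fell by 2.56 ± 0.36 and 2.63 ± 0.36 on the log2 scale after IL-4 and IL-13 (adjusted p = 0.000839 and 0.00109, limma). Aldoa, the muscle and widely expressed aldolase, fell by 1.26, 1.12 and 0.69 after IL-4, IL-13 and IL-31, all called, whereas Aldoc, the brain-type aldolase, rose by 0.65, 0.93 and 0.71, all called. Aldoc measured 4.35 to 4.78 log2 CPM in IL-4 libraries, 4.67 to 4.95 in IL-13 libraries and 4.47 to 4.71 in IL-31 libraries, against 3.31 to 4.31 in PBS libraries, with no overlap between any cytokine group and PBS.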

How the data were processed

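RNA was measured in 20 mouse ear pinna libraries (RNeasy Plus Universal extraction, NEBNext Ultra II libraries, per the labels' protocols). The authors deposited 1 table of log2 CPM for 16669 genes; build GRCm38 and edgeR are named without a version, per the submitters' processing notes. The sources used here do not state the aligner, the counter, strandedness, or the offset and normalization behind the values. All 20 libraries share a lowest deposited value of -2.684 log2 CPM, and low values fell on steps that were whole reads for 77.3 to 87.6% of the low values in a library (within 0.02 reads), so whole reads were not recovered and counts were not modelled. Effective depths read from these steps had a median of 13.0 M reads. Intervals from depth would cover counting error only.

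Genes were named with GENCODE M21 (16644 of 16669 identifiers matched). Ndufb1-ps and Ndufb4c, a non-coding gene and a pseudogene, were left out. Genes with log2 CPM of at least 0 in at least 5 libraries were tested (16461; 208 were removed), in limma 3.58.1 (R 4.3.3) with 1 model of the 4 groups, empirical Bayes moderation with a trend, and Benjamini-Hochberg adjustment over all tested genes at 0.05. In simulated IL-4 against PBS data with 16461 genes, 200 of them changed, this fit recovered 44.5% of genes changed 1.5-fold, 69.0% of those changed 2-fold and 92.1% of those changed 4-fold, and 6.8% of its calls were false. The simulated noise was normal, independent between genes and libraries, and of equal spread in all groups. These rates may therefore not carry over to the data, where genes vary together and PBS libraries 1 to 3 stood apart. A set score is the mean over genes of log2 CPM centred on each gene's mean over the 20 libraries. Shares of a library are sums of linear CPM over the sum of all genes. Named genes were the mitochondrial mRNAs, the isoform pairs, and per complex and cytokine the called gene with the largest change; other genes named in the text were chosen after their values were seen. The members, lists and tests were chosen with earlier results of these data known. Alternatives were another filter, no filter, a pseudocount of 1 CPM, quantile normalization, fits of only the groups compared, a replicate block, leaving out each library or PBS libraries 1 to 3, and the muscle or epidermis score as a covariate. Figures were drawn with matplotlib 3.10.9.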

Additional observations from a re-analysis of the deposited data

Results flagged for a closer look

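Of 160 groups of 5 libraries examined, 22 had 1 library far from the other 4 by Dixon's test at 95%, where chance gives about 1 in 20, or 8.0, for independent groups. These groups are not independent, since they hold genes that vary together and scores built from the same genes. The 22 can therefore not be weighed against 8.0. Most of the 22 fell on 2 libraries. IL-13 library 2 was high for mt-Nd1 (11.809 log2 CPM, others at most 11.276), mt-Co1 (13.447, others at most 12.909), mt-Co2 (12.151, others at most 11.611), mt-Atp6 (11.681, others at most 11.046), mt-Nd4 (11.133, others at most 10.537) and mt-Cytb (11.926, others at most 11.302). Its mitochondrial minus nuclear score was 0.356, against -0.347 to -0.143 in the other IL-13 libraries.

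IL-31 library 3 was low for mt-Co2 (11.520 log2 CPM, others at least 11.723), mt-Cytb (11.303, others at least 11.664), Cox6a2 (3.569, others at least 5.505), Cox7a1 (2.814, others at least 4.159), Cox8b (2.799, others at least 4.328) and Sdhb (6.036, others at least 6.277). It was low for the mitochondrial score (-0.289, others at least -0.023), the complex II score (-0.235, others at least 0.096) and the complex IV score (-0.172, others at least 0.109), and high for Cox8a (6.764 log2 CPM, others at most 6.650). Its muscle score was -0.81, against 0.89 to 1.31 in the other IL-31 libraries.

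IL-4 library 1 was high for mt-Nd3 (7.926 log2 CPM, others at most 7.075) and low for Cox6a2 (1.253, others at least 3.528). Single libraries stood apart for Cox6a1 (IL-13 library 3, 8.110 log2 CPM, others at most 7.807), Cox7a2 (IL-4 library 3, 5.635, others at least 5.885) and Atp5j (IL-13 library 5, 6.236, others at least 6.427).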

How the results depend on the processing

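Without a filter, with a stricter filter or with a pseudocount of 1 CPM, the counts of members called and their medians stayed within 1.5 times of the reported ones or within their spread. Quantile normalization called 18 nuclear members after IL-31 and turned Cox4i2 in IL-4 to 0.089 and Ndufa4 in IL-31 to -0.062. Fits of only the 2 groups compared called 5, 1 and 0 mitochondrial and 34, 19 and 0 nuclear members after IL-4, IL-13 and IL-31; these fits hold fewer samples. Without PBS libraries 1 to 3, 0, 0 and 0 mitochondrial and 24, 3 and 0 nuclear members were called, and the mitochondrial medians were -0.402 in IL-4 and -0.161 in IL-31. There Cox8a was 0.029, 0.096 and 0.038, Cox4i2 0.366, 0.153 and 0.097, Cox4i1 0.008 in IL-13 and 0.038 in IL-31, Cox6b2 0.019 in IL-31 and Ndufa4 -0.198 in IL-31. With the muscle score as a covariate, 0 members of either set were called, with medians of -0.332 (mitochondrial, IL-4), -0.226 (nuclear, IL-4) and -0.170 (nuclear, IL-13). In that fit mt-Nd4l was 0.114 in IL-4 and 0.103 in IL-31, Cox6a2 was 0.080 and Cox6a1 -0.112 in IL-13, and Ndufa4l2 was -0.246 in IL-13 and -0.076 in IL-31. With the epidermis score as a covariate, chosen after seeing the data, 0 mitochondrial members were called, with medians of -0.340, -0.244 and -0.033, and 0 nuclear members in IL-13 and IL-31. There Cox4i2 was 0.453, 0.374 and 0.286, Cox8a 0.081 in IL-13 and 0.019 in IL-31, and Cox6b2 0.140 and 0.212. In IL-31, mt-Atp8 was 0.034, mt-Nd4l 0.110, mt-Nd5 0.040, Cox4i1 0.011, Ndufa4l2 -0.063 and Ndufa4 -0.377. The cause of these shifts was not tested.

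Leaving out each library in turn gave 7 to 11 mitochondrial members called in IL-4, 0 to 7 mitochondrial and 0 to 21 nuclear in IL-31, 0 to 6 nuclear in IL-4 against IL-31 and 0 to 3 nuclear in IL-13 against IL-31. The lowest count in IL-4, 7, came without IL-4 library 5 or PBS library 3. In IL-31, both sets fell to 0 without IL-31 library 3 or 5 or PBS library 1, 2 or 3, and 7 mitochondrial members with 21 and 18 nuclear ones were called without PBS library 4 and without PBS library 5. Signs turned for Cox4i2 in IL-4 (-0.417 to 0.102), Ndufa4l2 in IL-13 (-0.007 to 0.255) and IL-31 (-0.046 to 0.164), Cox8a in IL-13 (-0.062 to 0.027), Cox6a1 in IL-31 (-0.055 to 0.050), mt-Nd4l in IL-31 (-0.394 to 0.052) and Ndufa4 in IL-31 (-0.097 to 0.159) and IL-13 (-0.217 to 0.040). The replicate numbers did not pair the samples as a whole: 10 of 30 correlations between same-numbered libraries exceeded 0.1, and a library correlated best with its own number in 5. The highest values, 0.402, 0.452 and 0.486, were those between libraries 2 of IL-13, IL-31 and PBS, each best with its own number. IL-4 library 2 correlated at 0.029 to 0.078 with these. The reason was not tested. With the replicate number as a block, 11, 11 and 2 mitochondrial and 60, 42 and 8 nuclear members were called in the 3 comparisons with PBS, and 0 in each comparison between cytokines. Depth limits genes near 3 reads, which is 0.127 to 0.492 CPM.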
